A study of Mus musculus with 22 samples.

Results

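The genes examined here encode 9 components of the complement system, C1qa, C1qb, C1qc, C1ra, C2, C3, C4b, Cfb and Serping1, which were chosen by symbol and not by a threshold on their values. The choice was made with earlier results of these data known. All 9 were found among the 46882 genes of the expression table, which covers 16 of the 22 samples of the series. The table holds 2 libraries of cultured MC38 cells, a colon carcinoma line of C57BL/6 mice, sampled at day 0, and 2 libraries of normal skin of wild-type C57BL/6N mice taken at day 23. It also holds 12 tumors grown from MC38 cells injected under the skin of mice of 8 to 12 weeks of age, 3 each from wild-type (WT) C57BL/6N mice at day 23 and day 46 and 3 each from mice labelled RAG1-/- (B6.129S7-Rag1tm1Mom/J) at day 13 and day 23. Rag1 is needed to rearrange the receptor genes of T and B cells, so mice without it make neither cell type but keep macrophages and other innate cells. Each tumor was a mixture of injected cancer cells and cells of the host, and in such bulk RNA fewer cells of a type and less RNA per cell cannot be told apart.

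Levels are given as normalized counts, the reads on a gene divided by a factor that puts libraries of different depth on 1 scale. Libraries held 5589151 to 26134241 reads on genes, so that a floor of 3 reads corresponded to 1.33 to 6.38 normalized counts. Reads of Rag1 itself went against the labels, with 23 reads spread over all 6 tumors labelled RAG1-/- and 1 read over the 6 WT tumors. Libraries read the 3′ end of a transcript, and whether this end lies outside the part of Rag1 missing from the allele is not given in the sources used here, so Rag1 checks nothing. The lymphocyte genes went with the labels, since Igkc, an antibody light chain, had 5 reads over the 6 tumors labelled RAG1-/- and 1347 over the 6 WT tumors, and Cd8a, of killer T cells, had 1 and 235. In MC38 cells 6 of 13 macrophage marker genes had no read in either library, and 8 keratinocyte marker genes summed to 308 to 330 normalized counts there against 410594 and 416478 in skin. Skin also carried 1803 and 1919 normalized counts of the Y-linked gene Ddx3y, whereas the 12 tumors, grown in female hosts, held at most 1.07, so the sex of the donor and the tissue cannot be told apart in any comparison with skin.

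Complement is a cascade of plasma proteins that marks targets for uptake by phagocytes and can pierce their membranes. In the classical pathway C1q, a molecule built from the chains encoded by C1qa, C1qb and C1qc, binds antibody or other ligands and activates the proteases C1r (C1ra) and C1s. These proteases cut C4 (C4b) and C2, whose fragments form the enzyme that cleaves C3, the central component, and factor B (Cfb) forms the corresponding enzyme of the alternative pathway. Serping1 encodes C1 inhibitor, which blocks C1r and C1s. The liver supplies most of these proteins to plasma, whereas C1q is made mainly by macrophages and dendritic cells, and fibroblasts and other stromal cells make several of the rest. A panel of 4 hepatocyte marker genes reached at most 23.4 normalized counts in a tumor, and 3 of the 4 had no read in any of them.

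The 3 C1q genes lie next to each other on the minus strand of chromosome 4 in GRCm38, which is the build mm10, C1qb at chr4:136880129-136886187, C1qc at chr4:136889804-136893065 and C1qa at chr4:136895917-136898803. C4b (chr17:34728380-34743882), Cfb (chr17:34856374-34862518) and C2 (chr17:34862604-34898265) form a second cluster on the minus strand of chromosome 17, and C3 lies apart from them at chr17:57203970-57228136. C1ra is on the plus strand of chromosome 6 (chr6:124512405-124523443) and Serping1 on the minus strand of chromosome 2 (chr2:84765387-84775444). Promoter entries of RefSeq (GRCm38.p6), each from 250 bases before to 50 bases after a transcript start, matched 4 of the 9 genes, C1qb, C1qc, C1ra and C3. Those of the neighbors C1qb and C1qc are shown because these genes moved together across the libraries, with the core of the ETS family motif, GAGGAA, in capitals. ETS factors include the macrophage regulator PU.1. The first stretch is chr4:136886201-136886450 on the minus strand, and the second is chr4:136893066-136893164 on the minus strand, cut where an annotated exon begins.
C1qb: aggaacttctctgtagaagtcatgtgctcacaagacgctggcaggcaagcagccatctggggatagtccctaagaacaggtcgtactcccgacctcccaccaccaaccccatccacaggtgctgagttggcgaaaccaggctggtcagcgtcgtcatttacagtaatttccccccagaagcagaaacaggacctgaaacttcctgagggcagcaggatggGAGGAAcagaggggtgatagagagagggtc
C1qc: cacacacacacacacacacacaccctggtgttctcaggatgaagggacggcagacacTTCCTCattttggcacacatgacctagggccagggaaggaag
The match in C1qb lies 30 bases before the transcript start of its RefSeq entry. That in C1qc lies 193 bases before the start of its own entry, on the opposite strand, where it reads TTCCTC. The C1qc stretch shown ends upstream of that start, at the annotated exon, so this distance runs past the bases shown. Over both strands 23.25% of the 32851 promoters in the table hold GAGGAA, so these matches are a description and not a site shown to be bound. The gamma-activated site (TTCNNNGAA), the core of the interferon-stimulated response element (GAAANNGAAA), the C/EBP core (TTGCNCAA) and TATAAA, searched on both strands, had no match in any of the 4 windows, and 7.02%, 2.98%, 2.61% and 12.37% of all promoters hold them.

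C1qa, C1qb and C1qc were close to absent from cultured MC38 cells and higher in every tumor than in skin. The MC38 libraries held 0 and 0.978 normalized counts of C1qa, and the skin libraries 560 and 643. Its levels were 1318, 1550 and 1501 in the tumors labelled RAG1-/- of day 13, 856, 1013 and 1373 in those of day 23, 2811, 1707 and 1443 in the WT tumors of day 23 and 1259, 1405 and 1401 in those of day 46. The lowest tumor was thus above the higher skin library, and the WT tumor of day 23 with 2811 stood apart from the other 11.

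C1qb had 1 read over both MC38 libraries, 2162 and 1577 normalized counts in skin, and 2838 to 8404 in the 12 tumors, with a median of 5170. In the tumors labelled RAG1-/- it reached 2838, 4590 and 5422 at day 13 and 3194, 4088 and 5865 at day 23. The WT tumors had 8404, 6070 and 4917 at day 23 and 4203, 6373 and 6300 at day 46. C1qc had 2 reads over both MC38 libraries, 1725 and 1128 normalized counts in skin, and 2654 to 6093 in the 12 tumors, with a median of 4220. The lowest and the highest tumor of C1qb were also the lowest and the highest of C1qc.

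**Figure D1:**
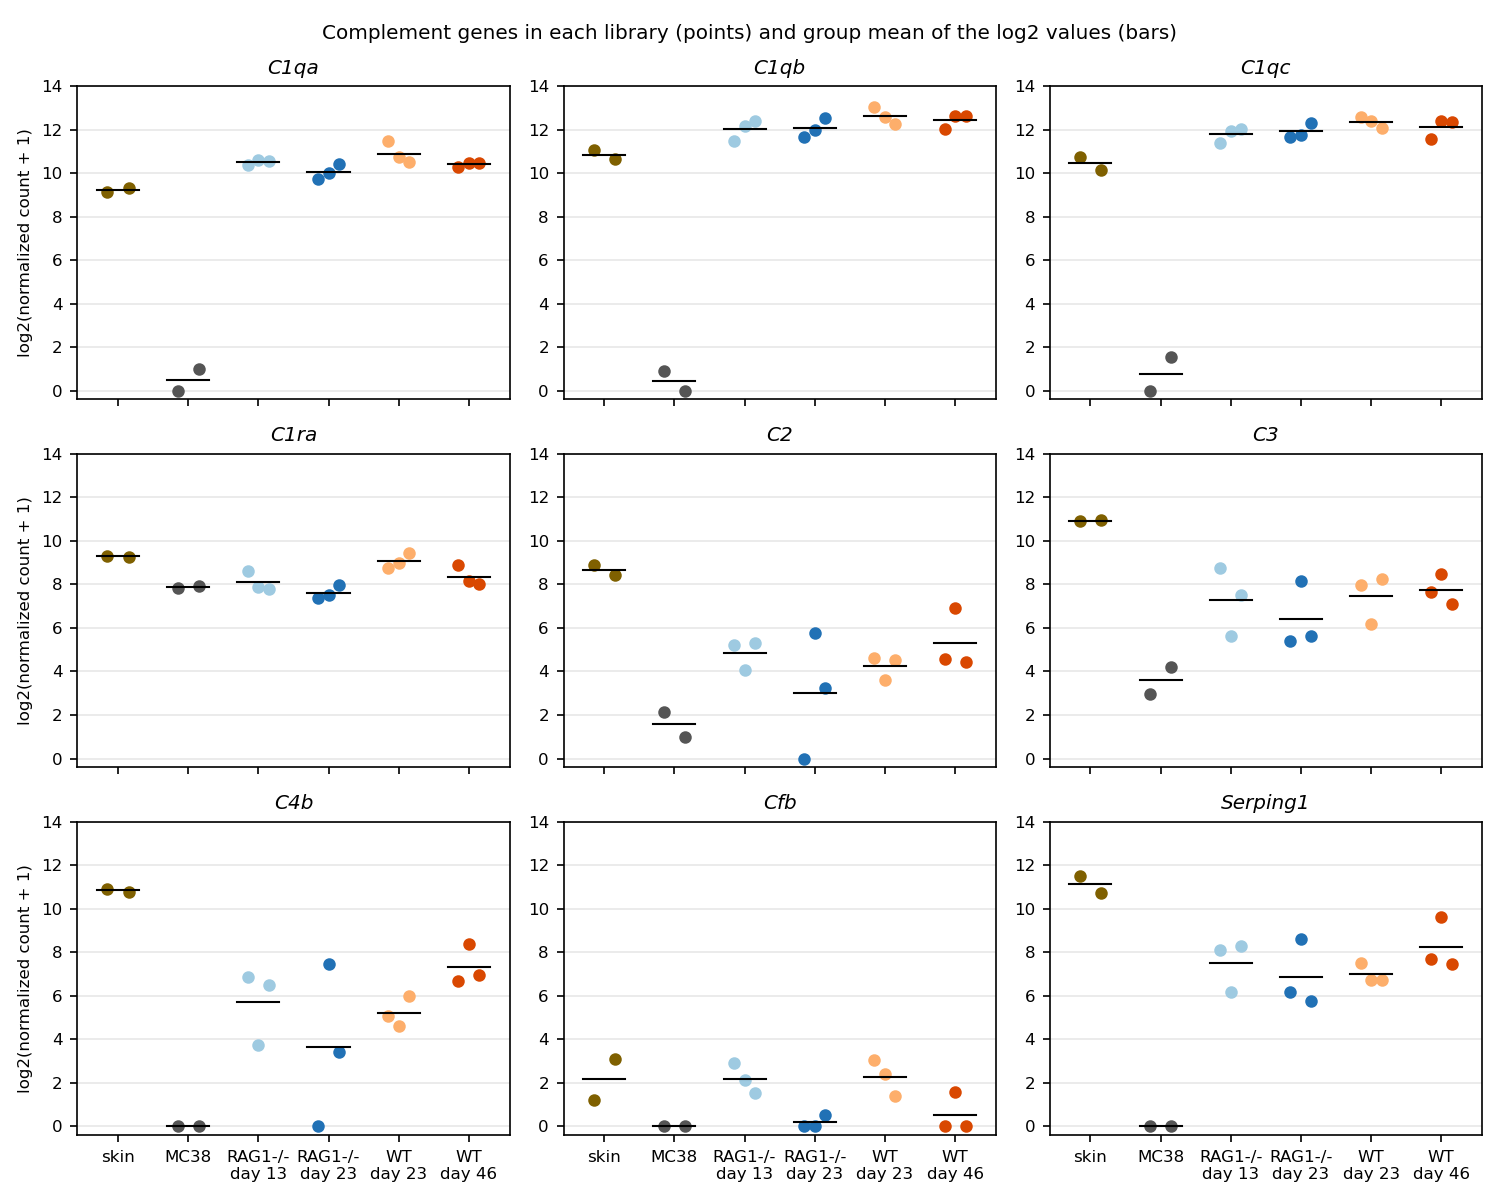
Levels of the 9 complement genes in the 16 libraries, 1 panel per gene. The vertical axis is log2(normalized count + 1), each point is 1 library placed in its group (normal skin, MC38 cells and the 4 tumor groups), and the bar is the mean of the log2 values of the group. C1qa, C1qb and C1qc are near 0 in MC38 and above skin in all 12 tumors, C1ra is present in MC38, and C2, C3, C4b and Serping1 are lower in all 12 tumors than in skin.

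Differences were estimated with limma on log2(normalized count + 1), a scale on which folds of weakly expressed genes come out too small, and its two-sided p-values were adjusted over all genes tested by the Benjamini-Hochberg method. Of the 9 genes, 8 had a mean of at least 5 normalized counts and were tested, and Cfb was not. Against skin, C1qa, C1qb and C1qc were higher in WT tumors by 1.42 (standard error 0.26, limma adjusted p = 0.000202), 1.68 (standard error 0.30, adjusted p = 0.000172) and 1.77 (standard error 0.33, adjusted p = 0.000281) on the log2 scale. In tumors labelled RAG1-/- they were higher than in skin by 1.05, 1.18 and 1.40 (limma adjusted p = 0.00232, 0.00286 and 0.0019). Thus 3 of the 8 genes tested were higher than skin in each genotype, where 23.7% of all 16158 genes tested were higher in WT tumors and 24.7% in tumors labelled RAG1-/-. The split of all genes depended on the scaling, with 3833 higher and 5571 lower than skin in WT tumors as deposited, 5635 and 4036 after scaling to the same total and 5964 and 3876 after scaling to the same upper quartile. In tumors labelled RAG1-/- the split went from 3999 higher and 5829 lower to 5764 and 4334 and to 6179 and 4092. The median of all genes was lower than skin by 0.17 and 0.20, and rescaling the libraries to the same total or the same upper quartile, which moved these medians above 0, kept all 6 of these differences past the threshold. With a pseudocount of 0.1 none of the 3 genes was called in tumors labelled RAG1-/- (adjusted p = 0.0857 to 0.124), and without skin replicate 2 only C1qa was.

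Mean levels in the 12 tumors were 244% of the skin mean for C1qa, 278% for C1qb and 302% for C1qc. All 3 genes were higher in each of the 12 tumors than in both skin libraries, an arrangement that 20% of all genes tested showed. Against the pooled MC38 libraries, with 1 read of C1qa, the ratio of the tumor mean was 3221 (95% interval 578 to 127240, exact Poisson, for the error of counting the MC38 reads only). For C1qc, with 2 reads in MC38, it was 4726 (1308 to 39023). The libraries as described carry no molecular identifiers, so such intervals and floors cover counting error only.

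The ratio of C1qc to C1qb was 0.845 ± 0.082 (SD, n = 12) over the tumors and 0.757 ± 0.058 (n = 2) in skin. The ratio of C1qa to C1qb was 0.290 ± 0.067 (n = 12) over the tumors, from 0.220 to 0.464, and 0.333 ± 0.105 (n = 2) in skin. By group it was 0.277 to 0.464 in the tumors labelled RAG1-/- of day 13, 0.234 to 0.268 in those of day 23, 0.281 to 0.334 in the WT tumors of day 23 and 0.220 to 0.300 in those of day 46. The tumors labelled RAG1-/- of day 23 thus did not overlap those of day 13 or the WT tumors of day 23, while the WT days overlapped. An exact test of 3 against 3 tumors cannot go below 0.1. No test of these ratios was made, and how often ratios of other genes separate in this way was not counted. Both ratios therefore overlapped between tumors and skin while the levels did not. Since reads come from the 3′ end of each transcript and not from its length, these ratios are not numbers of molecules per C1q complex.

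The genes whose centered log2 profile over the 16 libraries was nearest to C1qa, by the root mean square (RMS) difference among 16150 genes, were Mpeg1, which encodes the macrophage pore-forming protein perforin-2 (RMS 0.230), Ms4a7 (0.353) and Cxcl16, a chemokine of myeloid cells (0.391). C1qb lay nearest to Fcer1g, the signaling chain of Fc receptors (0.282), the lysosomal protease Ctss (0.328) and the adaptor Tyrobp (0.347). C1qc shared Fcer1g (0.383), Tyrobp (0.399) and Mpeg1 (0.466) with these lists. Fcer1g, for example, had a mean of 1324 normalized counts in skin, 0 in MC38 and 2464, 2286, 3729 and 3301 in the tumors labelled RAG1-/- of day 13 and day 23 and the WT tumors of day 23 and day 46. Over the 13 macrophage markers the summed level was 56743 to 75438 in skin, 225 to 264 in MC38 and 23410 to 50865 in the tumors. Most of the skin sum was 1 gene, the lipoprotein gene Apoe, with 41174 and 62415 normalized counts in skin and 6209 to 16724 in the tumors. Without Apoe, a sum chosen after its level was seen, the other 12 markers reached 13023 to 15569 in skin and 17004 to 34141 in the tumors, so the order of tumors and skin was the opposite of that over all 13, where every tumor was lower. Against skin 5 of the 13 were higher and 4 lower in each genotype. Of all genes tested, 23.7% were higher and 34.5% lower in WT tumors, and 24.7% and 36.1% in tumors labelled RAG1-/-. The part that macrophage number has in the C1q levels was not tested.

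C1ra, the protease that C1q activates, had 509 reads in the MC38 libraries, where each of the other genes had at most 26. Its level was 224 and 241 in cultured cells and 631 and 612 in the skin libraries. In the tumors labelled RAG1-/- it was 396, 232 and 223 at day 13 and 162, 183 and 247 at day 23. In the WT tumors it was 433, 502 and 696 at day 23 and 474, 285 and 257 at day 46. The tumors labelled RAG1-/- thus lay on both sides of MC38, all 6 WT tumors lay above it, and a WT tumor of day 23 with 696 exceeded both skin libraries.

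C1ra was higher in WT tumors than in MC38 by 0.84 on the log2 scale (standard error 0.27, limma adjusted p = 0.0304). In tumors labelled RAG1-/- the difference from MC38 was -0.01 (95% confidence interval -0.58 to 0.55, limma adjusted p = 0.996). The call in WT tumors was lost in 8 alternatives, among them leaving out WT day 23 replicate 3 (adjusted p = 0.058), either MC38 library (0.144 and 0.195) or skin replicate 2 (0.0516), rescaling to the same upper quartile (0.0802) and the replicate number as a block (0.0525). Against skin C1ra was lower by 1.43 in tumors labelled RAG1-/- (log2 fold change -1.43, standard error 0.27, limma adjusted p = 0.000242), and in WT tumors the difference was -0.57 (standard error 0.27, adjusted p = 0.0767). About 19.1% of the 50-base windows in the last 500 exonic bases of C1ra also occur in its neighbor C1rb, which had at most 2.69 normalized counts in any library.

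C1s1, which encodes the partner protease C1s and belongs to the list of other complement genes, reached 34.2 and 15.6 normalized counts in the MC38 libraries, against 833 and 627 in skin. Tumors labelled RAG1-/- held 27.5 to 317 and WT tumors 187 to 494. C1s1 was higher in WT tumors than in MC38 (log2 fold change 3.57, standard error 0.62, limma adjusted p = 0.000397). The nearest profiles to C1ra were those of Scara5, a scavenger receptor (RMS 0.285), Bet1l (0.325) and Irak2 (0.343), and each of them was also present in MC38.

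C2, C3, C4b and Serping1 shared another pattern, with high levels in skin, few or no reads in MC38 and low, uneven levels in tumors. C4b and Serping1 had no read in either MC38 library. C2 stood at 3.42 and 0.978 normalized counts in MC38, from 5 reads, and C3 at 6.84 and 17.6, from 26 reads. Skin held 472 and 347 of C2, 1913 and 1981 of C3, 1921 and 1745 of C4b and 2934 and 1662 of Serping1.

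C3, the component on which all pathways converge, was 425, 48.9 and 181 normalized counts in the tumors labelled RAG1-/- of day 13 and 40.6, 285 and 49.0 in those of day 23. WT tumors held 252, 71.6 and 304 at day 23 and 197, 357 and 138 at day 46. Every tumor lay above both MC38 libraries and below both skin libraries, and the tumor mean was 10.1% of the skin mean. The ratio of the tumor mean to pooled MC38 was 16.5 (95% interval 11.3 to 25.3, exact Poisson).

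C4b, which encodes C4, was 117, 12.2 and 89.5 in the tumors labelled RAG1-/- of day 13 and 0, 177 and 9.72 in those of day 23. WT tumors held 32.5, 23.0 and 61.8 at day 23 and 99.7, 334 and 121 at day 46. The tumor mean was 4.89% of the skin mean and, against the floor of 3 reads in the shallower MC38 library, at least 30.6-fold higher than MC38. A total of 38.1% of the 50-base windows at the 3′ end of C4b occur in the neighboring copy C4a too, where at most 10.2 normalized counts were found, so reads of the pair are uncertain.

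C2, the partner of C4 in the C3-cleaving enzyme, was 36.4, 15.6 and 39.1 in the tumors labelled RAG1-/- of day 13, 0, 53.2 and 8.40 in those of day 23, 23.6, 11.1 and 22.2 in the WT tumors of day 23 and 22.5, 118 and 20.7 in those of day 46. The 0 in a tumor labelled RAG1-/- of day 23 allows up to 3.93 normalized counts at the depth of that library. The tumor mean was 7.55% of the skin mean. An overlapping gene model on the same strand, Gm20547, covers 42.8% of the exonic bases of C2 but only 6.2% of its last 500, and had no read in any library.

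Serping1, the inhibitor, was 271, 71.2 and 310 in the tumors labelled RAG1-/- of day 13 and 70.7, 387 and 53.0 in those of day 23. WT tumors held 183, 104 and 103 at day 23 and 202, 780 and 172 at day 46. A tumor of day 46 with 780 was the highest and still lay below both skin libraries. The tumor mean was 9.82% of the skin mean and at least 76.9-fold higher than MC38.

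Against MC38, all 8 genes tested were higher in WT tumors, where 16.7% of all genes tested were higher and 8.13% lower, and 6 of 8 in tumors labelled RAG1-/-, where 14.2% were higher and 6.42% lower. With the same upper quartile 2331 genes were higher and 2376 lower in WT tumors, instead of 2701 and 1314, and 2063 and 1775 in tumors labelled RAG1-/-, instead of 2292 and 1037. Serping1 was higher by 7.61 (standard error 0.71, limma adjusted p = 4.95e-07) and 7.18 (standard error 0.71, adjusted p = 1.16e-06), and C3 by 4.01 (adjusted p = 0.00118) and 3.25 (adjusted p = 0.00685), in WT tumors and in tumors labelled RAG1-/-. C4b was higher by 6.27 (limma adjusted p = 0.00168) and 4.67 (adjusted p = 0.0157). For C2 the differences were 3.21 (limma adjusted p = 0.0336) and 2.37 (adjusted p = 0.127), and the first of them was lost in 11 alternatives, including each MC38 or skin library left out (0.0616 to 0.283), WT day 23 replicate 1 or 3 left out (0.0566 and 0.0553), WT day 46 replicate 2 left out (0.0645) and the replicate number as a block (0.0548). In tumors labelled RAG1-/- the call of C4b was lost without either MC38 library (adjusted p = 0.115 and 0.126) and that of C3 without MC38 replicate 1 (0.141), while C2 passed without RAG1-/- day 23 replicate 1 (log2 fold change 3.12, adjusted p = 0.00735). Levels of C1qa, C1qb, C1qc, C3 and Serping1 in all 12 tumors lay above both MC38 libraries, an arrangement shown by 14.7% of the genes tested.

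Against skin, C2, C3, C4b and Serping1 were lower in both genotypes. In WT tumors the log2 fold changes were -3.89, -3.32, -4.57 and -3.50 (standard errors 1.04, 0.79, 1.28 and 0.71, limma adjusted p = 0.00446, 0.00185, 0.00604 and 0.00054). In tumors labelled RAG1-/- they were -4.73, -4.08, -6.17 and -3.93 (limma adjusted p = 0.000972, 0.000313, 0.000596 and 0.000179). With C1ra, 5 of the 8 genes were therefore lower in tumors labelled RAG1-/-, where 36.1% of all genes tested were, and 4 of 8 in WT tumors, where 34.5% were. All 4 genes were lower in each of the 12 tumors than in both skin libraries, as 32.3% of the genes tested were. The WT calls of C2 and C4b were lost without skin replicate 1 (adjusted p = 0.0677 and 0.0726), and that of C4b also without skin replicate 2 (0.0677).

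In MC38 cells all 8 genes were lower than in skin, where 37.9% of all genes tested were lower and 22.2% higher. That is 6120 lower and 3587 higher, against 4845 and 5094 with the same total and 4438 and 6010 with the same upper quartile, and all 8 genes kept a negative difference under both. The fall was smallest for C1ra (log2 fold change -1.41, standard error 0.33, limma adjusted p = 0.00141), and the other 7 lay between -7.10 for C2 and -11.11 for Serping1 (highest adjusted p = 0.00016). After rescaling to the same upper quartile, which moved the median of all genes from -0.28 to 0.36, C1ra no longer passed (log2 fold change -0.78, adjusted p = 0.0513).

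**Figure D2:**
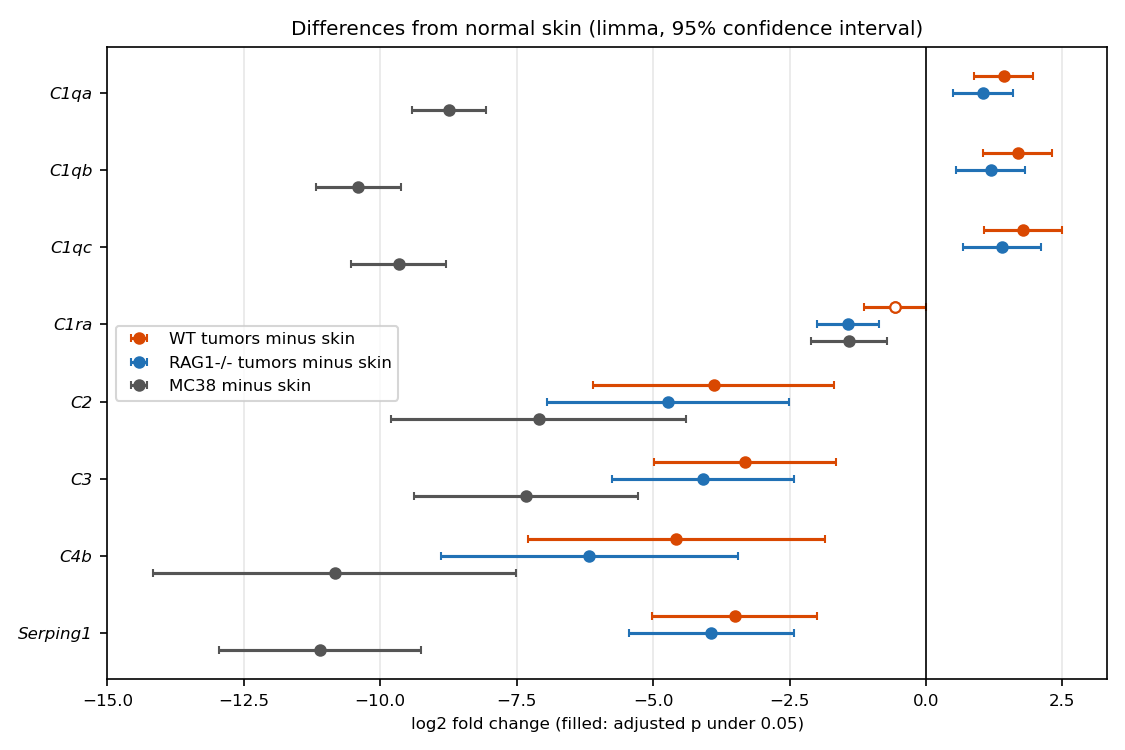
Differences from normal skin of the 8 complement genes tested, in log2 fold change on the horizontal axis, for WT tumors, tumors labelled RAG1-/- and MC38 cells. Points are limma estimates, bars are 95% confidence intervals, and open points did not pass an adjusted p of 0.05. C1qa, C1qb and C1qc are above skin in both kinds of tumor and far below it in MC38, and the only open point is C1ra in WT tumors at -0.57.

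The levels of C2, C3, C4b and Serping1 varied more from tumor to tumor than those of the C1q genes. The coefficient of variation over the 12 tumors was 100.5% for C2, 66.6% for C3, 105% for C4b and 90.2% for Serping1, which exceeded that of 96.2%, 89.1%, 96.6% and 94.9% of the 14746 genes tested. For C1qa, C1qb and C1qc it was 32.7%, 29.8% and 25.04%, near the median of 25.2% over all genes. The same tumors were high in several of the 4 genes. WT day 46 replicate 2 was the highest of the 12 in C2, C4b and Serping1 and second in C3, and RAG1-/- day 23 replicate 2 was second in C2, C4b and Serping1 and ranked 4 of 12 in C3. RAG1-/- day 23 replicate 1 was the lowest in C2, C3 and C4b.

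Sums over marker genes differed among the same tumors. The 6 adipocyte markers, each with reads in some tumor, summed to 876, 171 and 581 normalized counts in the tumors labelled RAG1-/- of day 13, 130, 526 and 119 in those of day 23, 220, 156 and 220 in the WT tumors of day 23 and 270, 559 and 585 in those of day 46, against 13596 and more in skin. This list includes Cfd, the protease factor D of the alternative pathway. Most of the sum in each tumor was 1 gene, Fabp4, with 118 to 600 normalized counts in tumors labelled RAG1-/- and 136 to 557 in WT tumors. Adipoq had at most 34.5 in a tumor, against 785 and 908 in skin. WT day 46 replicate 2 had 829 reads of Fabp4, 3 of Adipoq and none of Plin1, Lep or Cidec. The 9 fibroblast markers summed to 14503 normalized counts in RAG1-/- day 23 replicate 1, the lowest of the tumors, and to 51542 in WT day 46 replicate 2, the highest, against 360127 and 418553 in skin. Other tumors did not follow this order. RAG1-/- day 23 replicate 3 summed to 36040, the median of its group, but was the lowest of the tumors in Serping1 (53.0) and held 9.72 of C4b. The part of either cell type in the levels of C2, C3, C4b and Serping1 was not tested.

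**Figure D3:**
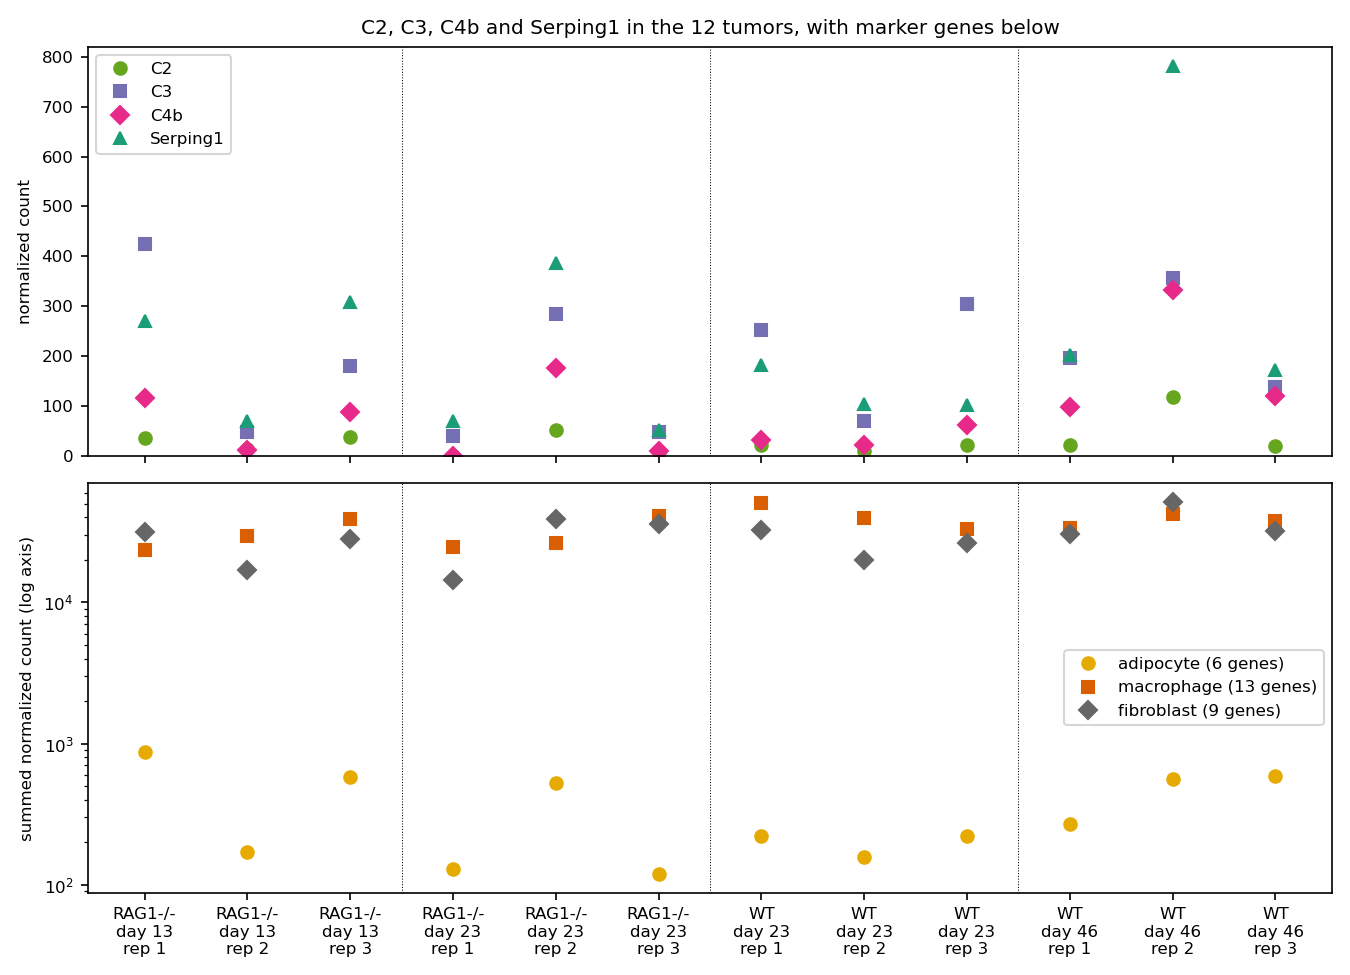
Levels of C2, C3, C4b and Serping1 in each of the 12 tumors (upper panel, normalized counts) and the summed normalized counts of adipocyte, macrophage and fibroblast marker genes in the same tumors (lower panel, log axis). Each symbol is 1 library and dotted lines separate the groups. Most of the adipocyte sum in each tumor is Fabp4. Serping1 reaches 780 and C4b 334 in WT day 46 replicate 2, and RAG1-/- day 23 replicate 2 is high in all 4 genes.

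By the measure used above, the nearest profiles were more distant for these genes. Serping1 lay nearest to Thy1, a surface protein of fibroblasts and T cells (RMS 0.581), Gda (0.588) and Col15a1, a basement membrane collagen (0.610). C3 lay near Hoxb4 (0.475) and Rps4l (0.698), and C2 to Scarf2 (0.654), Igsf10 (0.811) and Clip3 (0.858). C4b lay nearest to the chemokine Ccl8 (0.697), the Wnt antagonist Sfrp1 (0.905) and Rarres2, which encodes chemerin (0.929). Thy1 and Col15a1, like Serping1, had a mean of 0 in MC38, with 1443 and 1332 normalized counts in skin.

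Cfb, factor B of the alternative pathway, had 1 and 6 reads in the skin libraries, none in MC38 and 0 to 10 in a tumor. The highest tumor, WT day 23 replicate 1, had 7.38 normalized counts, and 4 of the 12 tumors had no read. These levels are at or near the floor, and no fold change is given. The gene model Gm20547 covers 79.5% of the exonic bases of Cfb and 77.6% of its last 500 on the same strand, and 91.6% of 50-base windows at the 3′ end occur in both. Counting of reads per gene as commonly set leaves out reads that fall on 2 overlapping genes, and Gm20547 itself had no read, but the part of this overlap in the low Cfb counts was not tested. The nearest profiles were those of Gm8599, Tap2 and Trim12c (RMS 0.703 to 0.724), set against a gene with few reads.

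The comparison of WT tumors with tumors labelled RAG1-/- asked how the presence of T and B cells goes with the expression of these genes. The hosts also differed in strain, as given above, and the authors reported faster tumor growth in RAG1-/- mice. Strain, growth and the presence of T and B cells cannot be told apart here. At day 23, the time point that both genotypes share, C1ra alone passed. C1ra was higher in WT tumors by 1.45 on the log2 scale (95% confidence interval 0.85 to 2.05, standard error 0.28, limma adjusted p = 0.0444), a fold of 2.73, with all 3 WT tumors (433 to 696) above all 3 labelled RAG1-/- (162 to 247). This is 1 gene higher and 0 lower of 8 tested, where 0.231% of all 14746 genes tested were higher and 0.0475% lower. The call is close to the threshold, since it was lost with 6 of the 11 other settings and when any of 8 of the 12 tumors was left out (adjusted p from 0.0199 to 0.227), while DESeq2 on the recovered reads gave an adjusted p of 0.000829. Its log2 fold change stayed between 1.26 and 1.62 with each tumor left out.

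C1qa was higher in the 3 WT tumors (1443 to 2811) than in the 3 labelled RAG1-/- (856 to 1373) at day 23, without overlap, but did not pass (log2 fold change 0.85, 95% confidence interval 0.38 to 1.31, limma adjusted p = 0.13). Among the other settings DESeq2 alone called it (log2 fold change 0.87, adjusted p = 0.0206). An absence of overlap in this direction was shown by 8.5% of all genes tested. C1qb and C1qc differed by 0.57 and 0.43 (limma adjusted p = 0.455 and 0.536), and their groups overlapped. For C2, C3, C4b and Serping1 the log2 fold changes were 1.25, 1.08, 1.58 and 0.14, with standard errors of 0.71 to 1.29 (limma adjusted p = 0.64 to 0.964). The signs of C2, C4b and Serping1 were not stable. Their mean normalized counts were lower in WT tumors, at 19.0 against 20.5, 39.1 against 62.1 and 130 against 170. Without RAG1-/- day 23 replicate 1, which had no read of C2 or C4b, their differences were -0.25, -0.24 and -0.20. The 95% confidence intervals of the fit with all tumors are wide, for C4b from -1.18 to 4.33, so that differences of several fold were not detectable. Their lower ends ran from -0.57 for C3 to -1.36 for Serping1.

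Over both days, 0 of the 8 genes passed limma in the comparison of 6 WT tumors with 6 labelled RAG1-/-, where 0.57% of all genes tested were higher and 0.142% lower. WT tumors were of days 23 and 46 and those labelled RAG1-/- of days 13 and 23. Genotype and day therefore cannot be told apart here, and the exact test below takes no account of the day. At an unadjusted p under 0.05, 4 genes were higher and 0 lower, where 6.64% of all genes tested were higher and 4.77% lower, edgeR called 0, and DESeq2 called C1ra (adjusted p = 0.00762). C1ra was higher by 0.85 (95% confidence interval 0.43 to 1.28, limma adjusted p = 0.0701), with a mean of 441 ± 160 normalized counts (SD, n = 6) against 241 ± 82.4 (n = 6). In the two-sided exact permutation test of 6 against 6 tumors, which cannot go below 0.00216, C1ra gave p = 0.013, with the WT tumor higher in 34 of 36 pairs. The same exact test gave p = 0.0519 for C1qb (difference 0.49), 0.0823 for C1qc (0.38) and 0.134 for C1qa (0.37), with the WT tumor higher in 31, 30 and 26 of 36 pairs. For C2, C3, C4b and Serping1 the exact p lay between 0.247 and 0.552. All 8 log2 fold changes were positive, with a median of 0.63 against 0.01 over all genes tested. Several of these genes were high in the same tumors, so the 8 are not independent, and their shared sign was not tested. Without RAG1-/- day 13 replicate 1, RAG1-/- day 23 replicate 3 or WT day 46 replicate 3, C1ra passed (adjusted p = 0.0428, 0.0439 and 0.0426).

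Several marker sums differed between the same tumors. T cell markers summed to 85.0 to 367 normalized counts in WT tumors and to 5.56 to 35.2 in those labelled RAG1-/-. Of 19 genes of the response to interferon gamma, 6 were higher in WT tumors at day 23 and 0 lower, where 0.231% of all genes were higher, and over both days 7 were higher and 0 lower, where 0.57% were. Their summed level was 31289 to 55807 in WT tumors at day 23 and 13571 to 39955 at day 46, and 9761 to 17108 in tumors labelled RAG1-/-, so the WT tumors of day 46 overlapped these. None of the 13 macrophage markers passed over both days (limma, median log2 fold change 0.24). The part of these differences in the C1ra or C1q levels was not tested.

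**Figure D4:**
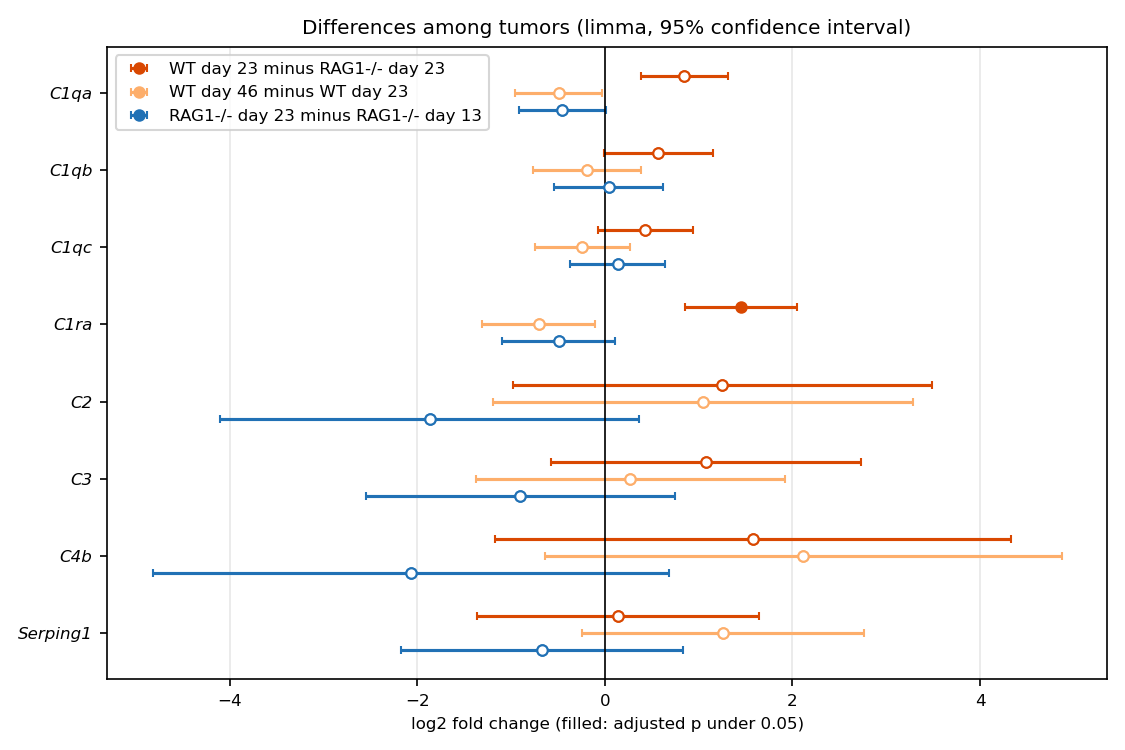
Differences among the tumors for the 8 complement genes tested, in log2 fold change on the horizontal axis: WT against RAG1-/- at day 23, day 46 against day 23 in WT, and day 23 against day 13 in RAG1-/-. Points are limma estimates, bars are 95% confidence intervals, and the only filled point, with an adjusted p under 0.05, is C1ra in WT against RAG1-/- at day 23, at 1.45. Intervals of C2, C3, C4b and Serping1 are wide and all contain 0.

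The later and earlier tumors of each genotype were compared to follow the genes as tumors grew. In WT tumors 0 of the 8 genes passed limma between day 46 and day 23, as did 0% of the 14746 genes tested. At an unadjusted p under 0.05, 1261 genes differed, among them C1ra (log2 fold change -0.71) and C1qa (-0.49), while edgeR called 0 genes and DESeq2 26 higher and 17 lower, none of them among the 8. C4b had a mean of 185 ± 129 normalized counts (SD, n = 3) at day 46 against 39.1 ± 20.2 (n = 3) at day 23, and Serping1 385 ± 343 against 130 ± 45.9, but neither passed (limma adjusted p = 0.674 and 0.651).

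In tumors labelled RAG1-/- 0 of the 8 genes and 0% of all genes passed between day 23 and day 13, where 1722 genes, none of the 8 among them, had an unadjusted p under 0.05. edgeR again called 0 genes, and DESeq2 called 89 higher and 117 lower, none of the 8. Log2 fold changes ran from -2.07 for C4b (95% confidence interval -4.82 to 0.68) to 0.14 for C1qc (-0.37 to 0.64). The step from the earlier to the later time point was also compared between genotypes, although the days differ (46 against 23 in WT, 23 against 13 in tumors labelled RAG1-/-). None of the 8 genes and 0% of all genes passed (limma), and 1279 genes had an unadjusted p under 0.05, among them C4b (difference of steps 4.19, standard error 1.83, adjusted p = 0.554). C2 and Serping1 differed by 2.92 and 1.93 (limma adjusted p = 0.617 and 0.6254), edgeR called 0 of all genes, and DESeq2 called 36 higher and 22 lower, none of the 8.

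The other complement genes were read from a list of 46 symbols, of which 44 were in the table. Of these, 24 were tested among tumors and 26 with skin and MC38. Between the genotypes 0 of 24 passed limma at day 23 and 0 over both days. Against MC38, 19 of 26 were higher in WT tumors and 18 in tumors labelled RAG1-/-, and 0 were lower. Of all genes tested, 16.7% were higher and 8.13% lower in WT tumors, and 14.2% and 6.42% in tumors labelled RAG1-/-. Against skin, 7 were higher and 9 lower in WT tumors, and 6 higher and 10 lower in tumors labelled RAG1-/-. The shares of 26 against skin are near those of all genes tested, 23.7% higher and 34.5% lower in WT tumors and 24.7% and 36.1% in tumors labelled RAG1-/-.

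Among the complement receptors, 6 of 9 tested were higher than skin in WT tumors and 5 in tumors labelled RAG1-/-, and none was lower, beside 23.7% and 24.7% of all genes higher. The list also holds C1qbp, which cultured MC38 cells expressed at a mean of 8007 normalized counts, against 2578 in skin and 6047 in WT tumors. Itgax, a subunit of complement receptor 4, had 102 and 85.4 normalized counts in skin, no read in MC38 and 302 to 1144 in the tumors. It was higher in WT tumors than in skin by 2.86 (standard error 0.25, limma adjusted p = 8.97e-08). C5ar1, the receptor of the fragment C5a, had 121 and 88.0 in skin, at most 1.96 in MC38 and 197 to 396 in the tumors, and was higher in WT tumors by 1.47 (limma adjusted p = 0.000284). C3ar1, the receptor of C3a, had 364 and 866 in skin, 0 in MC38 and 593 to 1316 in the tumors, and did not pass against skin (limma adjusted p = 0.0699).

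Among the regulators, 5 of 7 tested were lower than skin in each genotype and none was higher, beside 34.5% of all genes lower in WT tumors and 36.1% in tumors labelled RAG1-/-. Cd55, which speeds the decay of the C3-cleaving enzymes, had 297 and 358 normalized counts in skin and 2.62 to 46.0 in the tumors (log2 fold change -5.29 in WT tumors, limma adjusted p = 4.1e-05). Clu, which encodes clusterin, had 2221 and 1295 in skin, 54.8 and 51.8 in MC38 and 120 to 791 in the tumors (log2 fold change -1.90, limma adjusted p = 0.00344).

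In the alternative pathway, Cfd had 7594 and 6630 normalized counts in skin, no read in MC38 and 0 to 237 in the tumors. Cfp, which encodes properdin, the stabilizer of that pathway's enzyme, had 659 and 551 in skin, 14.5 and 12.7 in MC38 and 281 to 895 in the tumors. It was higher in WT tumors than in MC38 by 5.07 (limma adjusted p = 8.28e-09) and differed from skin by -0.30 (adjusted p = 0.477). Of 7 genes of the terminal pathway, 3 were tested, and Hc, which encodes C5, was higher in WT tumors than in skin (log2 fold change 3.25, limma adjusted p = 0.000328), from 0 and 3.82 normalized counts in skin to 8.51 to 44.9 in the tumors. Cultured MC38 cells held 18.8 and 18.6 normalized counts of Hc, inside the range of the tumors, and the difference of WT tumors from them was 0.09 (95% confidence interval -1.24 to 1.42, limma adjusted p = 0.947).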

How the data were processed

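RNA of 12 tumors, 2 MC38 and 2 skin samples was analysed. According to the labels and methods, RNA was made into QuantSeq 3′ libraries for an Ion Proton sequencer; Cutadapt and Trimmomatic served for trimming, reads under 22 nucleotides were dropped, STAR and Bowtie2 aligned the rest to mm10, and HTSeq gave counts per gene. The signal the authors deposited is this count divided by a DESeq2 size factor. Strand setting, annotation and tool versions are not given in the sources used here. All values of each library (100%) were whole multiples of 1 read within 0.01 reads, so reads were recovered. Replicates were not copies (chi-square per degree of freedom 8.42 to 87.2 over 14 pairs). A second table, of antibody-treated tumors, has 6 columns that match no label and was not used.

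Genes averaging 5 or more normalized counts were tested with limma 3.58.1 (R 4.3.3), with a mean-dependent trend, on log2(normalized count + 1) at an adjusted p of 0.05. Contrasts among tumors used the 12 tumors, and those with MC38 or skin used all 16 libraries. The labels do not say whether the MC38 samples were separate cultures or the skin samples separate animals, so these p-values measure only the spread between samples. Alternatives were edgeR 4.0.16 and DESeq2 1.42.0 on the recovered reads, other pseudocounts, filters, scalings and fits, a replicate block and each library left out. The tests were also run on simulated reads with known changes, which checks the code and not whether a single call holds. Single genes were compared by exact permutation tests. Positions came from GENCODE (GRCm38). The text could name the 9 genes, genes of fixed lists and the 3 nearest profiles of each gene. Some genes that this rule allows are not reported here. The 9 genes and all lists were chosen with earlier results of these data known.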

Additional observations from a re-analysis of the deposited data

Results flagged for a closer look

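Over the 6 WT tumors or the 6 labelled RAG1-/-, the distance of the highest and the lowest tumor to the nearest of the others was compared with the range by Dixon's ratio, in 18 sets of 1 gene and 1 genotype, of which 5 were past its 95% critical value. Chance flags about 1 in 20 groups when values are normally distributed and groups independent. Here the counts were not log-transformed, tumors of both days were pooled, and several genes were high in the same tumors. The number of flags therefore cannot be set against that rate. WT day 46 replicate 2 stood apart in C2 (118 normalized counts), C4b (334) and Serping1 (780), WT day 23 replicate 1 in C1qa (2811), and RAG1-/- day 13 replicate 1 in C1ra (396). No cause of these values was tested.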

How the results depend on the processing

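Of 859 recomputed values of the 8 genes under other settings, 829 kept their direction and their side of the threshold, and of 1120 with 1 library left out 1062 did. At day 23 the number of genes higher in WT tumors was 1, and it was 0 with a pseudocount of 0.1, no filter, the same upper quartile, no trend, the replicate block or edgeR, 2 with DESeq2 (C1ra and C1qa), and 0 to 1 with 1 library left out. Over both days it was 0, and 1 with DESeq2 and 0 to 1 with 1 library left out. The number higher than skin in tumors labelled RAG1-/- went from 3 to 0 with a pseudocount of 0.1 and lay between 1 and 3 with 1 library left out, and the number lower than skin in WT tumors between 2 and 5. None of the values that reversed had passed the test. For WT against RAG1-/- at day 23 these were C2 with DESeq2 (-0.049), C4b with edgeR (-0.55) and DESeq2 (-0.66) and Serping1 with edgeR (-0.30) and DESeq2 (-0.39). With the same total C1qb was -0.078 for RAG1-/- day 23 against day 13 and C1qa 0.11 for the difference of steps, and C1ra in tumors labelled RAG1-/- against MC38 was 0.024 with edgeR and 0.030 with DESeq2. With 1 library left out, C2, C4b and Serping1 at day 23 ran from -0.25 to 2.63, -0.24 to 3.50 and -0.40 to 1.02. C1qb, C1qc and C3 between WT day 46 and day 23 ran from -0.37 to 0.016, -0.38 to 0.017 and -0.37 to 0.66, and C1qb and C1qc between RAG1-/- day 23 and day 13 from -0.23 to 0.24 and -0.061 to 0.27. The difference of steps ran from -0.24 to 0.24 for C1qa and -0.43 to 0.042 for C1qb, and C1ra in tumors labelled RAG1-/- against MC38 from -0.14 to 0.061. The cause was not tested.

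The replicate numbers did not pair the tumors, since deviations of same-numbered tumors correlated by -0.22 to 0.19 over 18 pairs and 5 of 12 tumors were closest to their own number. With the replicate block C1ra at day 23 had an adjusted p of 0.0579 (limma). DESeq2 gave no adjusted p for C4b in 5 comparisons. Of all genes tested, 34 were higher and 7 lower in WT tumors at day 23, and 158 and 81 with DESeq2, 17 higher with edgeR, 18 and 4 with no filter, 12 and 3 with no trend and 14 lower with only the groups compared. Over both days 84 were higher and 21 lower, and 195 and 90 with DESeq2, 41 and 7 with no trend and 9 lower with no filter. With the same upper quartile 2376 genes instead of 1314 were lower in WT tumors than in MC38, 1775 instead of 1037 in tumors labelled RAG1-/-, and the numbers higher than skin were 5964 instead of 3833 in WT tumors, 6179 instead of 3999 in tumors labelled RAG1-/- and 6010 instead of 3587 in MC38. With only the groups compared, 17 genes were higher and 6 lower in RAG1-/- day 23 against day 13, where the fit of 12 tumors called 0. In the comparisons over time DESeq2 also called genes where limma called 0, as given above. A fit of only the groups compared was not run over both days or for the difference of steps. With 3 tumors a group and 2 libraries each of skin and MC38, differences of several fold in C2, C3, C4b and Serping1 between tumor groups were not detectable.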
